A study of Mus musculus with 24 samples.

Results

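The comparison set basal cells of the mouse mammary gland with high surface Tspan8 (Tspan8hi) against basal cells without it (Tspan8-), for trimethylation of lysine 4 on histone H3 (H3K4me3). Its members were the 8 H3K4me3 libraries of the 24 samples in the series, taken by their labels. There were 4 Tspan8hi libraries, 2 from Lgr5+Tspan8hi and 2 from Lgr5-Tspan8hi cells, and 4 Tspan8- libraries, 2 from Lgr5+Tspan8- and 2 from Lgr5-Tspan8- cells. The rest of the series was 8 H3K27me3 libraries, used here as a second readout at the same genes, and 8 input samples, not analysed here. All cells were sorted straight from mammary glands of untreated C57BL/6 females, and the labels give neither the age nor the sort gates. Nothing in the labels says whether the 2 libraries of a subpopulation came from separate mice, so p-values measure the spread between these libraries, which may be technical. Both Lgr5 states had equal weight in the averaged comparison.

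H3K4me3 is laid down around the start sites of genes by the SET1 and MLL methyltransferase complexes, which are drawn to unmethylated CpG-rich DNA and to active transcription. It marks active promoters and, together with the Polycomb mark H3K27me3, promoters held in a poised state. Basal cells form the outer layer of the mammary epithelium and include the contractile myoepithelial cells. Tspan8 is a tetraspanin, a 4-pass membrane protein that organises other proteins in the cell membrane, and Lgr5 is an R-spondin receptor that strengthens Wnt signalling. The comparison asks how the promoter mark differs with Tspan8 whatever the Lgr5 state.

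Total counts were 2241266 to 3260828 in the Tspan8hi libraries and 1472251 to 4740371 in the Tspan8- libraries, over 27080 Entrez genes. Neighbouring genes with starts under 1 kb apart had nearly the same count. The median ratio of the higher to the lower was 1.01 over 1739 pairs, and 81.4% of pairs lay within 10%. An H3K4me3 value is thus read as the mark around a gene start and belongs to every gene that shares that start. Of 18 tested basal identity genes, Krt5 averaged 140 CPM in Tspan8hi and 141 CPM in Tspan8- libraries and Krt14 133 CPM in Tspan8hi and 129 CPM in Tspan8- libraries (CPM, counts scaled to a common library size with TMM factors; n = 4 each). Trp63, the master regulator of basal cells, had 0 to 9 counts per library and was below the filter. Which start of Trp63 was counted is not given, so the mark at any other start of it is not known from these counts. Counts were spread over fewer genes in Tspan8hi libraries. With each library thinned to 1472251 counts, 15.2% ± 5.14 of genes had no count in Tspan8hi libraries and 8.30% ± 1.82 had none in Tspan8- libraries (SD, n = 4 each; exact two-sided permutation test, p = 0.0286, the smallest that 70 arrangements allow). Lgr5-Tspan8hi replicate 1 stood apart at 22.7%. These are bulk samples, in which fewer marked cells and less mark per cell cannot be told apart.

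Few promoters differed with Tspan8. Of 19009 genes tested with edgeR's quasi-likelihood test, 9 passed a Benjamini-Hochberg adjusted p of 0.05 (0.0473%). One of them, Tspan8, was higher in Tspan8hi cells (0.00526%), and 8 were lower (0.0421%). The lower genes were the ubiquitin ligase genes Asb2 and Fbxl22, the coiled-coil protein gene Filip1l, the phosphodiesterase gene Pde3a, the sulfotransferase gene Hs3st4, the synaptic adhesion gene Lrfn5 with the non-coding Gm20063 beside it, and the membrane protein gene Tmem215. Lrfn5 and Gm20063 have starts within 2 kb of each other, so the calls stand for 1 higher and 7 lower promoters. Across all genes the median log2 fold change of Tspan8hi over Tspan8- was -0.0021, with 9434 genes above 0 (49.6%) and 9575 below (50.4%), and 90% of genes lay between -0.77 and 0.38. The number of calls rested on single libraries: Tspan8 alone passed without Lgr5+Tspan8- replicate 2 or without Lgr5-Tspan8- replicate 2, Tspan8 and Pde3a passed without Lgr5+Tspan8hi replicate 2, and 6 genes passed without Lgr5-Tspan8hi replicate 1. In the other direction, 14 genes passed without Lgr5+Tspan8- replicate 1, and 64 passed without Lgr5-Tspan8hi replicate 2, of which 13 were higher and 51 lower.

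**Figure D1:**
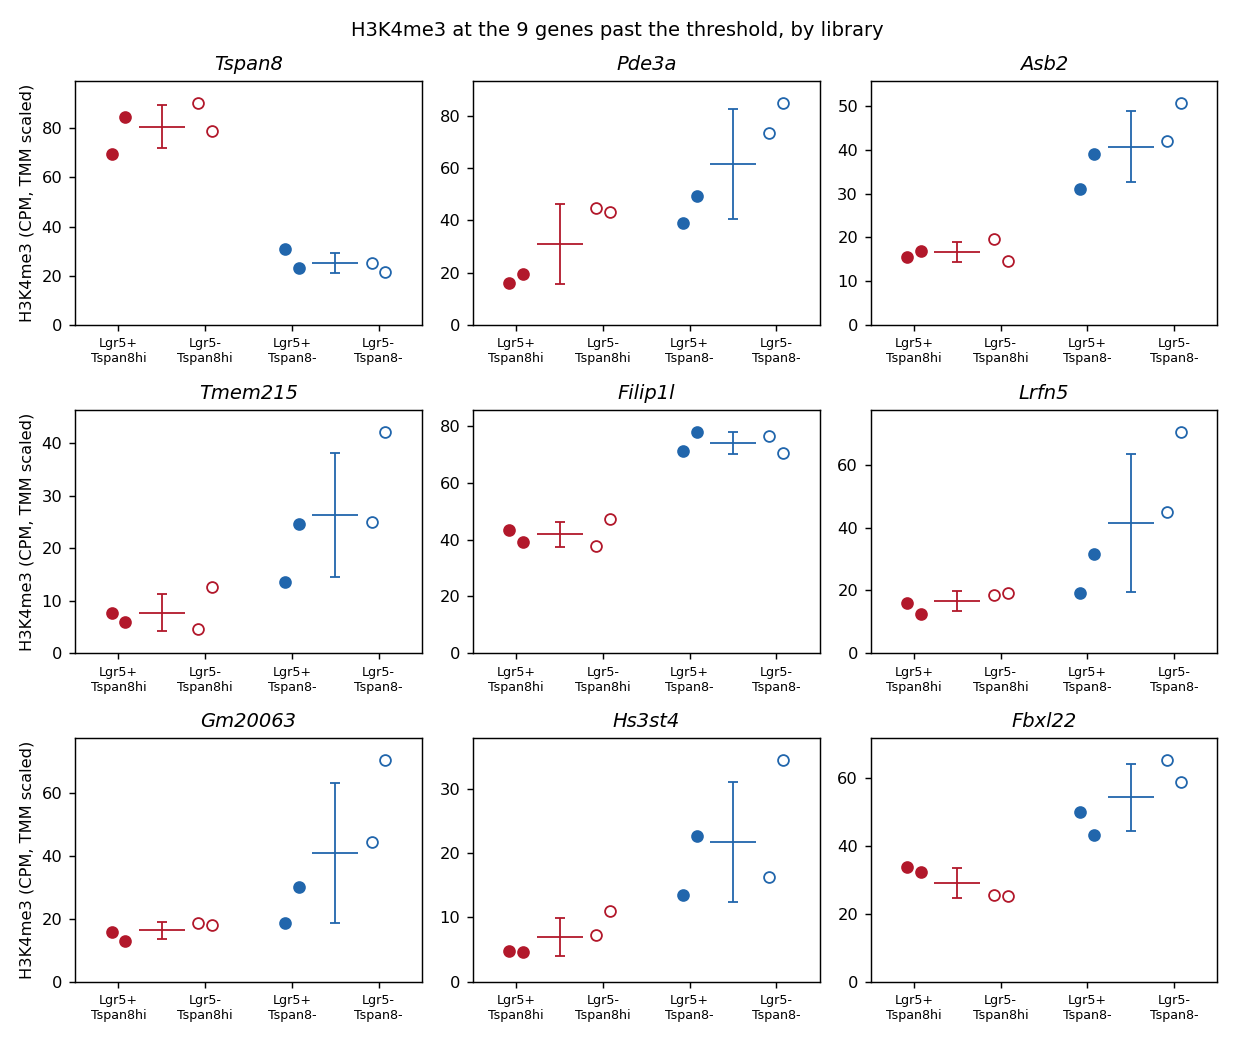
H3K4me3 in TMM-scaled CPM at the 9 genes past the threshold, with 1 point per library (red Tspan8hi, blue Tspan8-; filled Lgr5+, open Lgr5-) and the mean and SD of each 4 libraries between the points. Every Tspan8hi library was above every Tspan8- library at Tspan8, and at Pde3a and Gm20063 the ranges of both sides overlapped.

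Tspan8 is the gene whose product defined the sort, and its promoter followed the label in every library. Its H3K4me3 was 69.4 and 84.4 CPM in the Lgr5+Tspan8hi libraries and 90.2 and 78.8 CPM in the Lgr5-Tspan8hi libraries, against 30.99 and 23.3 CPM in the Lgr5+Tspan8- libraries and 25.1 and 21.3 CPM in the Lgr5-Tspan8- libraries. Every Tspan8hi library was far above every Tspan8- library, and the counts behind these values were 162 to 270 in Tspan8hi and 34 to 101 in Tspan8- libraries. Means were 80.7 ± 8.89 CPM in Tspan8hi and 25.2 ± 4.17 CPM in Tspan8- libraries (SD, n = 4 each), a 3.21-fold difference (log2 1.68 ± 0.18 SE, edgeR adjusted p = 3.25e-11). Tspan8 (chr10:115816817-115849893, plus strand, GRCm38.p6) and Lgr5 lie near each other on chromosome 10, their starts 229 kb apart. Lgr5 had 77.8 ± 13.6 CPM in Tspan8hi and 80.1 ± 22.3 CPM in Tspan8- libraries (SD, n = 4 each; log2 -0.02 ± 0.14, adjusted p = 0.995), with overlapping ranges. The 5 tested genes on each side of Tspan8, Lgr5 among them, had log2 fold changes between -0.40 and 0.32, and none passed (adjusted p = 0.866 to 0.995). The difference was thus measured at the Tspan8 start and at none of the neighbouring starts tested.

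Asb2 supplies the substrate-binding subunit of a cullin ubiquitin ligase that sends filamins to the proteasome. Asb2 (chr12:103321142-103356001, minus strand) had 15.4, 16.9, 19.6 and 14.6 CPM in Tspan8hi libraries, Lgr5+ replicates 1 and 2 first and Lgr5- replicates 1 and 2 after them, against 30.99, 39.0, 42.0 and 50.7 CPM in Tspan8- libraries in the same order. All 4 Tspan8hi libraries were below all 4 Tspan8- libraries, and the Tspan8hi values kept within a narrow band. Means were 16.6 ± 2.20 CPM in Tspan8hi and 40.7 ± 8.12 CPM in Tspan8- libraries (SD, n = 4 each), which is 2.42-fold lower in Tspan8hi cells (log2 -1.27 ± 0.24, adjusted p = 0.0052). The call was lost without Lgr5+Tspan8hi replicate 2, Lgr5+Tspan8- replicate 2 or Lgr5-Tspan8- replicate 2 (adjusted p = 0.057 to 0.310).

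Filip1l encodes a coiled-coil protein named for its likeness to a filamin A interacting protein. Filip1l (chr16:57353277-57572804, plus strand) had 43.3, 39.1, 37.8 and 47.3 CPM in Tspan8hi libraries, against 71.1, 78.1, 76.4 and 70.7 CPM in Tspan8- libraries, Lgr5+ replicates before Lgr5- replicates on each side. The sides were well apart and each was tight, yet the call was lost in 5 of the 8 fits that left out 1 library, namely without Lgr5+Tspan8hi replicate 2, Lgr5-Tspan8hi replicate 1, Lgr5+Tspan8- replicate 2 or either Lgr5-Tspan8- library (adjusted p = 0.059 to 0.145). Means were 41.9 ± 4.29 CPM in Tspan8hi and 74.1 ± 3.72 CPM in Tspan8- libraries (SD, n = 4 each; log2 -0.82 ± 0.16, adjusted p = 0.0099). The gene overlaps Cmss1, whose reads cannot be told apart where the genes coincide, but no other gene start was found within 2 kb of its own. Fbxl22 encodes an F-box protein that binds alpha-actinin and filamin C at the sarcomeres of heart muscle. Fbxl22 (chr9:66508459-66514593, minus strand, overlapping Herc1) had 33.8, 32.2, 25.5 and 25.2 CPM in Tspan8hi libraries, against 49.9, 43.1, 65.3 and 58.9 CPM in Tspan8- libraries. The Tspan8hi values were all below the Tspan8- values, and the log2 fold change was -0.51 ± 0.27 within Lgr5+ and -1.28 ± 0.28 within Lgr5- cells, a difference that did not pass its own test (adjusted p = 1.000). Its averaged log2 fold change was -0.89 ± 0.19 (adjusted p = 0.0261), and the call was lost when any one of 7 of the 8 libraries was left out (adjusted p = 0.0084 to 0.310 over all alternatives).

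Pde3a encodes a phosphodiesterase that breaks down cyclic AMP and is inhibited by cyclic GMP, known from heart and smooth muscle. Pde3a (chr6:141249269-141506862, plus strand, overlapping Gm10400) had 15.8 and 19.4 CPM in Lgr5+Tspan8hi, 44.7 and 43.4 CPM in Lgr5-Tspan8hi, 39.0 and 49.3 CPM in Lgr5+Tspan8- and 73.5 and 84.9 CPM in Lgr5-Tspan8- libraries. Within each Lgr5 state both Tspan8hi libraries were below both Tspan8- libraries, while the Lgr5- libraries were the higher ones on each side, so that the pooled ranges overlapped. The log2 fold change was -1.08 ± 0.19 (adjusted p = 0.0012), made of -1.30 ± 0.28 within Lgr5+ and -0.86 ± 0.25 within Lgr5-.

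Hs3st4 encodes a heparan sulfate 3-O-sulfotransferase, which adds a late and rare sulfate to the sugar chains of cell surface proteoglycans. Hs3st4 (chr7:123982366-124398989, plus strand) had 4.71, 4.69, 7.29 and 11.03 CPM in Tspan8hi libraries, against 13.5, 22.6, 16.3 and 34.4 CPM in Tspan8- libraries. The sides did not overlap, but the counts were small, 11 to 28 in Tspan8hi and 28 to 163 in Tspan8- libraries. The log2 fold change was -1.70 ± 0.35 (adjusted p = 0.0137). Limma-voom did not call Hs3st4, and the adjusted p reached 1.000 when single libraries were left out.

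Lrfn5 encodes a leucine-rich adhesion protein of synapses. Lrfn5 (chr12:61522851-61857928, plus strand) had 15.8, 12.5, 18.7 and 19.31 CPM in Tspan8hi libraries, against 19.32, 31.5, 44.9 and 70.5 CPM in Tspan8- libraries. The sides touched at Lgr5-Tspan8hi replicate 2 and Lgr5+Tspan8- replicate 1. The log2 fold change was -1.22 ± 0.25 (adjusted p = 0.0099). Gm20063 starts within 2 kb on the opposite strand and gave almost the same counts, with a log2 fold change of -1.20 ± 0.25 (adjusted p = 0.0137). Tmem215 encodes a multipass membrane protein. Tmem215 (chr4:40472180-40475653, plus strand) had 7.71, 5.94, 4.56 and 12.6 CPM in Tspan8hi libraries, against 13.5, 24.7, 25.1 and 42.2 CPM in Tspan8- libraries. Again all Tspan8hi libraries were the lower ones, here by a small margin at the nearest pair, and the log2 fold change was -1.71 ± 0.33 (adjusted p = 0.0055). The adjusted p reached 1.000 for both Lrfn5 and Tmem215 without Lgr5-Tspan8- replicate 2. For 6 of the 8 lower genes the sides did not overlap, whereas all 4 Tspan8hi libraries lay below all 4 Tspan8- libraries at 1.6% of all genes tested, and above them at 1.48%; the calls came from the same contrast.

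The starts that carry these differences differ in their DNA. The promoters shown are those of Tspan8 and of the 4 lower genes with the smallest p that have an entry in the RefSeq promoter table of GRCm38.p6, from 250 bases before to 50 after a start listed in that table (the most upstream where it lists several), 5′ to 3′ on the gene's strand, with CpG dinucleotides in capitals. They are chr10:115817034-115817333 for Tspan8 (plus strand), chr12:103355952-103356251 for Asb2 (minus strand), chr4:40471930-40472229 for Tmem215 (plus strand), chr16:57353027-57353326 for Filip1l (plus strand) and chr12:61522917-61523216 for Lrfn5 (plus strand).
Tspan8: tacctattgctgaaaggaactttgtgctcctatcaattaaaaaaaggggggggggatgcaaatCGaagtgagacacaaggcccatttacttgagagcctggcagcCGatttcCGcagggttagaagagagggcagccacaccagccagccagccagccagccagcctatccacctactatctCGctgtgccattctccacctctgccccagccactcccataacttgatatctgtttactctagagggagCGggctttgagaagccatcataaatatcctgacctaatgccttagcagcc
Asb2: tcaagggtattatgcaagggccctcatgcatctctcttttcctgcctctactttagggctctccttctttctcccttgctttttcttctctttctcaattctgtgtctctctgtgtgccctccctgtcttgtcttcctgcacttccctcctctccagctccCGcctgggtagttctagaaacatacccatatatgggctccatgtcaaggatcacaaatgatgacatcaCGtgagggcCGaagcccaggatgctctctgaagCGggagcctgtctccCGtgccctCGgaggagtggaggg
Tmem215: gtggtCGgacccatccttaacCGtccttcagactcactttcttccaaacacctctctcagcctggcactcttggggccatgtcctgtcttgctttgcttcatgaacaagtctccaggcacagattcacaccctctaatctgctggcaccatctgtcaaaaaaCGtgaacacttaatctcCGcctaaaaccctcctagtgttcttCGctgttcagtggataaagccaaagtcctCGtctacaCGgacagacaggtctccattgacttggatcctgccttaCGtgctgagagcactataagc
Filip1l: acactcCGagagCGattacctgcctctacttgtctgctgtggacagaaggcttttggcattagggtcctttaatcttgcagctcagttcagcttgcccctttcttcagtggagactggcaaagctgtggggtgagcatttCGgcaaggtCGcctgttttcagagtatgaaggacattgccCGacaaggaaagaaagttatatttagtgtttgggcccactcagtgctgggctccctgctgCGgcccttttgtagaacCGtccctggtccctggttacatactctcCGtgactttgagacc
Lrfn5: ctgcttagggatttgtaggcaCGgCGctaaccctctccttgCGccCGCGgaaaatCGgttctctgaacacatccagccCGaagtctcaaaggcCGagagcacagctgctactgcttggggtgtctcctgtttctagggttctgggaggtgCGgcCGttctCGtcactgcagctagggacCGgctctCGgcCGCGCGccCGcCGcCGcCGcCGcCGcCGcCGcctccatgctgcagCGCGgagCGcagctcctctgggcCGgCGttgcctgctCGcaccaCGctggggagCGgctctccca
The listed starts of Tspan8 and Lrfn5 lie downstream of the first base of the gene intervals printed above, which come from another RefSeq table, so their windows lie inside those intervals. The Tspan8 promoter holds 5 CpGs, Asb2 6, Tmem215 and Filip1l 8 each, and Lrfn5 32, against a median of 19 and a lower quartile of 9 over the 13648 tested genes with an entry, and a median of 7 over the first promoter of all 27025 genes in the table. Tspan8, Asb2, Tmem215 and Filip1l were thus below the lower quartile of the tested genes. Lrfn5 has more CpGs than 90.7% of all promoters in the table, and Hs3st4, with 47, more than 98.6%. The lower genes thus hold both CpG-poor and CpG-rich starts. Both strands were also searched for the TATA motif TATAAA, found in 14.2% of the promoters of all genes, the AP-1 motif TGANTCA (7.92%), the TEAD motif GGAATG (14.7%), the steroid receptor core TGTTCT (19.0%) and the CArG box bound by SRF (1.59%, and 1.33% of the tested genes). CpG counts are on 1 strand, and matches of different motifs were allowed to overlap. Among Tspan8 and the 7 lower genes with an entry, TATAAA and TGANTCA were absent from every window, TGTTCT occurred once, in Tmem215, and GGAATG once, in Fbxl22. A CArG box occurred in Asb2 (ccatatatgg, first base 64 bases before the start) and in Fbxl22 (ccttttaagg, 222 bases before the start). A match of letters is a description and not a bound site. Pde3a is named only.

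The averaged comparison is the mean of the differences within Lgr5+ and within Lgr5- cells, so the like sign of both at all 9 genes follows largely from how they were called. Within Lgr5+ cells 1 of 19009 genes passed (0.00526%), Tspan8 (adjusted p = 0.0013), and the 8 lower genes had adjusted p of 0.130 to 1.000. Within Lgr5- cells 5 passed (0.0263%), among them Tspan8 (adjusted p = 5.37e-07), Lrfn5 and Gm20063 (adjusted p = 0.0204 each) and Fbxl22 (adjusted p = 0.0382), and the other 5 lower genes had adjusted p of 0.082 to 0.563. Tspan8 was higher by 1.48 ± 0.25 within Lgr5+ and by 1.89 ± 0.25 within Lgr5- on the log2 scale. Asb2 had -1.10 ± 0.35 and -1.45 ± 0.34, Filip1l -0.85 ± 0.23 and -0.78 ± 0.23, Tmem215 -1.45 ± 0.48 and -1.97 ± 0.45, Hs3st4 -1.90 ± 0.53 and -1.50 ± 0.48, and Lrfn5 -0.81 ± 0.36 and -1.62 ± 0.33, Lgr5+ first in each pair. None of these pairs passed the test of the difference (adjusted p = 1.000 each). In that test, the interaction of Tspan8 and Lgr5, edgeR called 0 of 19009 genes (0%), with 799 at an unadjusted p under 0.05 (4.2%), DESeq2 called 0 and limma-voom 2. The smallest edgeR p belonged to Tmem200c, a transmembrane protein gene, at -0.78 ± 0.23 within Lgr5+ and 0.60 ± 0.22 within Lgr5- (adjusted p = 0.626). Il7, the cytokine interleukin 7, had -0.64 ± 0.20 within Lgr5+ and 0.44 ± 0.20 within Lgr5- (adjusted p = 1.000).

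**Figure D2:**
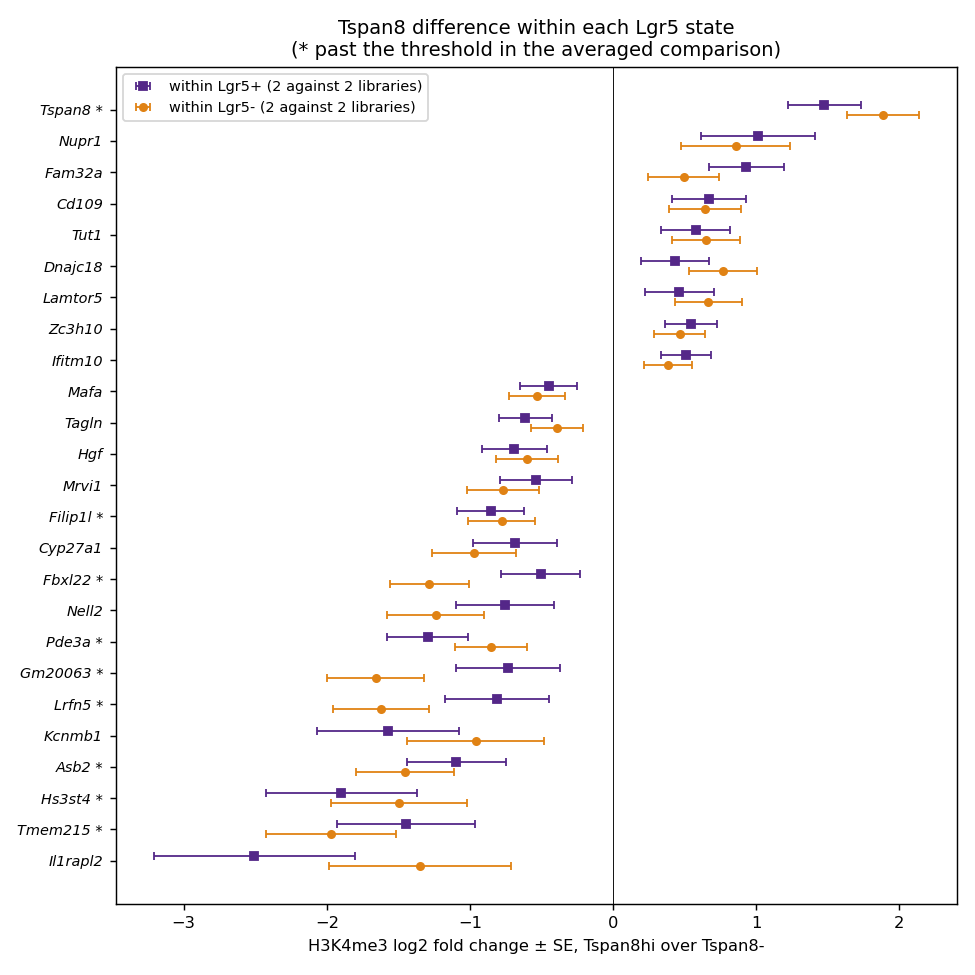
H3K4me3 log2 fold change of Tspan8hi over Tspan8- within Lgr5+ cells (squares) and within Lgr5- cells (circles), with SE. Shown are the 9 genes past the threshold (starred) and 16 genes that did not pass. These 16 were taken as the 8 smallest p each way among genes whose sides did not overlap. For Tspan8 both points lie right of 0, and for the 8 lower genes both lie left of it.

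Outside the threshold, 16 genes that did not pass were taken as the 8 smallest p in each direction among genes whose sides did not overlap, so their separation is given by the choice. Tagln, the actin-binding protein transgelin of smooth muscle, had 76.7, 70.4, 88.4 and 80.4 CPM in Tspan8hi libraries, against 116, 108, 102 and 118 CPM in Tspan8- libraries (log2 -0.50 ± 0.13, adjusted p = 0.152). Kcnmb1, the beta subunit of the calcium-activated potassium channel of smooth muscle, averaged 8.42 ± 2.40 CPM in Tspan8hi and 19.5 ± 5.47 CPM in Tspan8- libraries (SD, n = 4 each; adjusted p = 0.263). Mrvi1, a target of cyclic GMP-dependent kinase that damps calcium release in smooth muscle, averaged 38.8 ± 8.30 CPM in Tspan8hi and 60.4 ± 2.74 CPM in Tspan8- libraries (adjusted p = 0.263). At all of them each Tspan8hi library was below each Tspan8- library, as the choice required. Hgf, hepatocyte growth factor, averaged 52.1 ± 7.40 CPM in Tspan8hi and 82.3 ± 15.5 CPM in Tspan8- libraries (log2 -0.65 ± 0.16, adjusted p = 0.110). Nell2, a secreted protein of neurons, had a log2 fold change of -0.996 ± 0.24 (adjusted p = 0.110), and Cyp27a1, the mitochondrial sterol 27-hydroxylase, of -0.83 ± 0.21 (adjusted p = 0.125). Il1rapl2 and Mafa completed this side, at -1.93 ± 0.47 and -0.49 ± 0.14.

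On the higher side no gene but Tspan8 passed. Cd109, a surface co-receptor that restrains TGF-beta signalling, averaged 59.9 ± 10.4 CPM in Tspan8hi and 37.5 ± 4.14 CPM in Tspan8- libraries (log2 0.66 ± 0.18, adjusted p = 0.273). Ifitm10, of the interferon-induced transmembrane family, averaged 148 ± 17.5 CPM in Tspan8hi and 110 ± 14.3 CPM in Tspan8- libraries (SD, n = 4 each). Nupr1, a small stress-induced nuclear protein, averaged 28.6 ± 5.81 CPM in Tspan8hi and 14.8 ± 2.10 CPM in Tspan8- libraries. Tut1, a uridylyltransferase of U6 RNA, averaged 66.1 ± 6.41 CPM in Tspan8hi and 43.3 ± 4.54 CPM in Tspan8- libraries. Zc3h10, Fam32a, Dnajc18 and Lamtor5 made up the 8, at log2 fold changes of 0.51, 0.71, 0.60 and 0.57. Their adjusted p, with those of the others on this side, ran from 0.123 to 0.434. Zc3h10 has a start within 2 kb of that of Rpl41, a ribosomal protein gene, so the mark belongs to either.

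**Figure D3:**
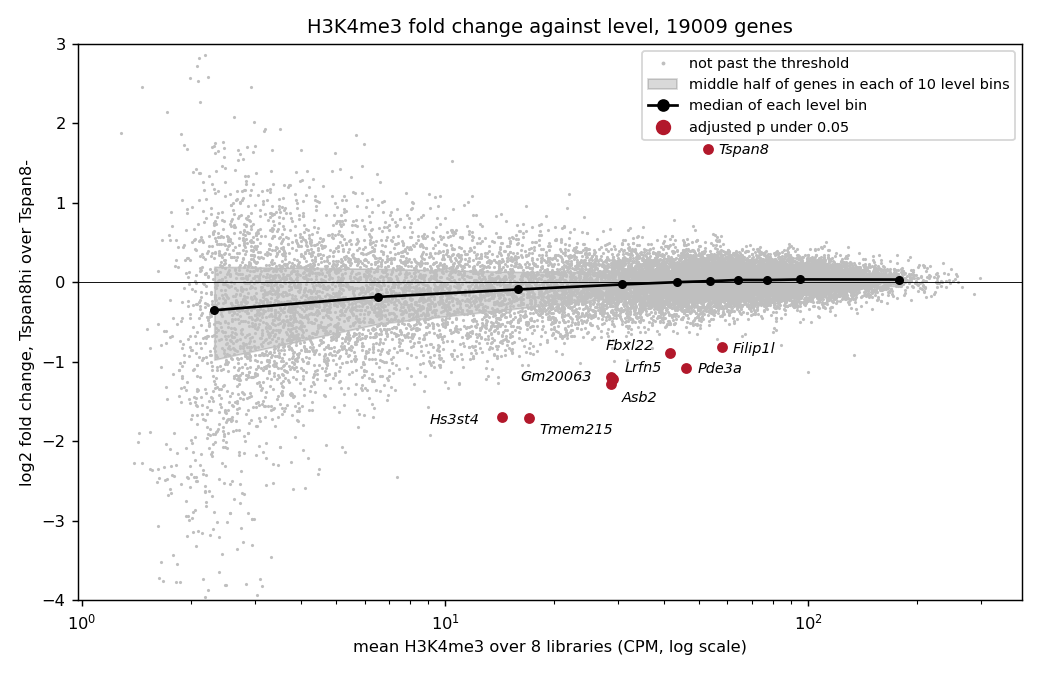
Log2 fold change of H3K4me3, Tspan8hi over Tspan8-, against the mean over 8 libraries (CPM, log scale) for 19009 genes, 13 of which fall outside the axis. The black line joins the medians of 10 level bins, -0.35 in the lowest and 0.03 in the highest, and the 9 genes past the threshold are in red.

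The fold change moved with the level of the mark. In 10 bins of equal size, the median log2 fold change was -0.35 in the bin of 1.28 to 4.17 CPM, -0.18 and -0.09 in the next bins, 0.0022 in the bin of 38.7 to 49.2 CPM and 0.03 in the bin of 106 to 297 CPM. The library measure given above, the share of genes with no count, moved with the groups in the same libraries, and its part in this slope was not tested. The 9 calls lay in the middle bins, with 2, 3, 2 and 2 calls in the bins between 10.3 and 58.9 CPM. All 9 also passed when each library was offset by a loess curve against mean abundance. How much of the slope remained under these offsets was not measured.

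Gene lists of cell types and pathways, drawn up with earlier results of these data known, were read against 5.9% of all genes at an unadjusted p under 0.05, 2.49% higher and 3.41% lower, and a median of -0.0021. Basal identity genes were even, with 7 of 18 above and 11 below 0, a median of -0.04 and none passing; the sign of that median turned without Lgr5-Tspan8hi replicate 2. Itga6, Itgb1, Krt5, Krt14 and Snai2 had log2 fold changes of -0.14, 0.01, -0.02, 0.05 and -0.02. Contractile and SRF target genes were mostly below 0, 18 of 25, with a median of -0.15 that stayed between -0.19 and -0.11 in all 17 alternatives. None of them passed, and 7 were lower and 1 higher at an unadjusted p under 0.05. At 6 every Tspan8hi library was below every Tspan8- library, as was so at 1.6% of all genes tested. Kcnmb1, Mrvi1 and Tagln, which were named for such a separation, are among the 6. The summed level of the list was 1917 to 2150 CPM in Tspan8hi and 2100 to 2330 CPM in Tspan8- libraries, overlapping. Behind Kcnmb1, Mrvi1 and Tagln came Des, the intermediate filament desmin, at means of 12.7 CPM in Tspan8hi and 23.0 CPM in Tspan8- libraries (log2 -0.87 ± 0.30). Actg2, enteric smooth muscle actin, averaged 25.3 CPM in Tspan8hi and 38.5 CPM in Tspan8- libraries (log2 -0.63 ± 0.23), and Synpo2, an actin-bundling protein, had a log2 fold change of -0.46 ± 0.18. Acta2, the actin that marks myoepithelial cells, averaged 112 CPM in Tspan8hi and 124 CPM in Tspan8- libraries (log2 -0.13 ± 0.12). Myh11, smooth muscle myosin, and Oxtr, the oxytocin receptor, had log2 fold changes of -0.24 ± 0.13 and -0.10 ± 0.11. Smtn, the smooth muscle protein smoothelin, was on the other side of 0, at 126 CPM in Tspan8hi and 104 CPM in Tspan8- libraries (log2 0.27 ± 0.12, adjusted p = 0.786). The spread of the list thus ran from -1.27 to 0.27.

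**Figure D4:**
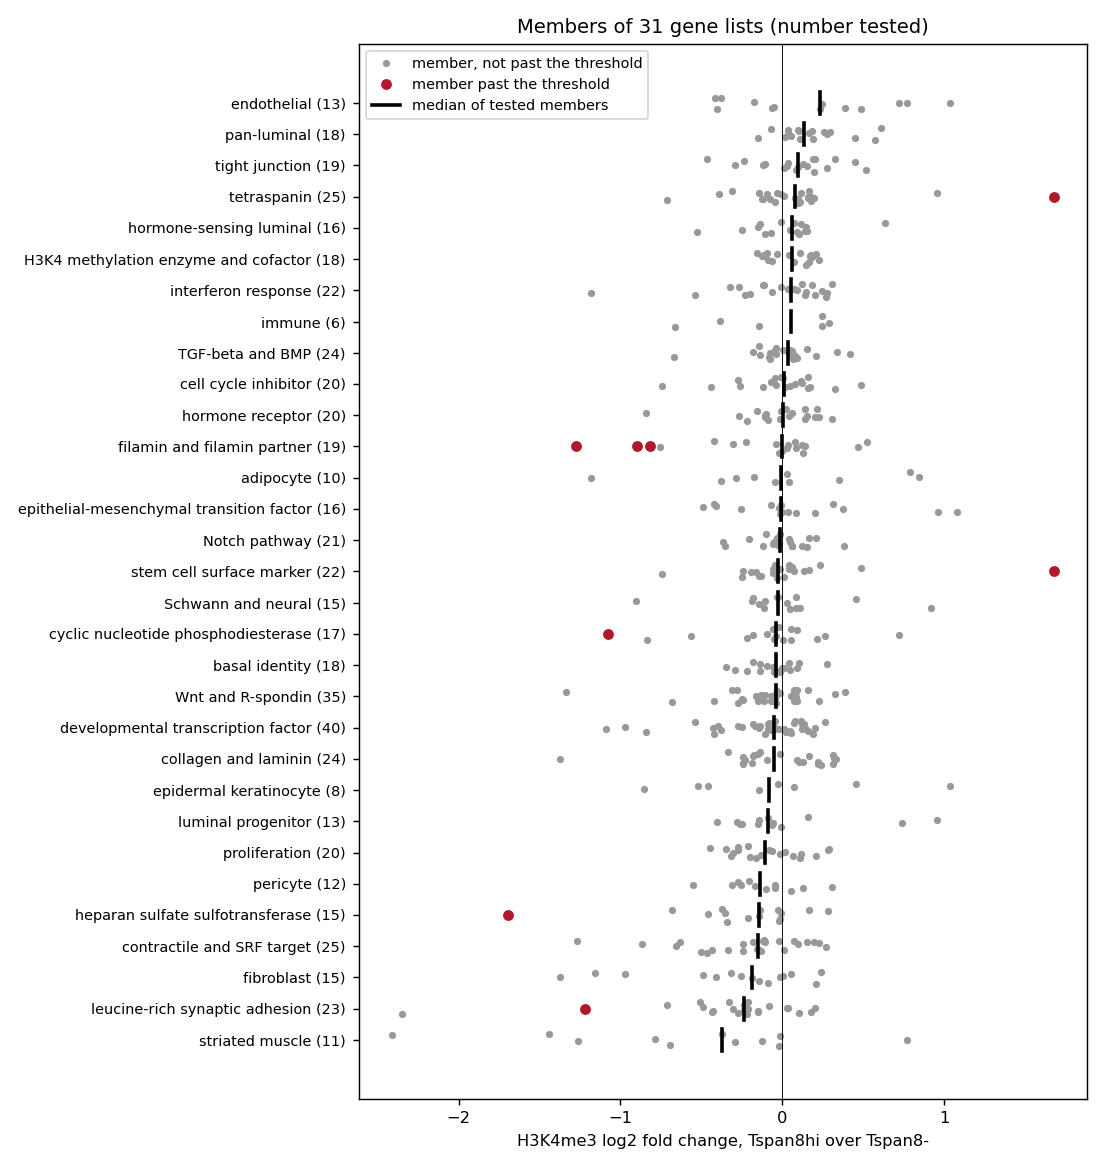
H3K4me3 log2 fold change of Tspan8hi over Tspan8- for the tested members of 31 gene lists, 1 point per gene, with the list median as a bar and genes past the threshold in red. Only 6 lists hold a red point, and those that do so other than for stem cell surface markers were drawn up around the called genes.

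Pan-luminal genes lay on the other side of 0. Of 18, 16 were above 0, with a median of 0.14 (0.10 to 0.16 over the alternatives), and none passed. Elf3, an epithelial ETS factor, averaged 41.8 ± 12.5 CPM in Tspan8hi and 27.8 ± 3.71 CPM in Tspan8- libraries (log2 0.58 ± 0.22, adjusted p = 0.730), and Cldn7, a claudin of tight junctions, 45.6 ± 9.16 CPM in Tspan8hi and 32.9 ± 0.619 CPM in Tspan8- libraries (log2 0.45 ± 0.20, adjusted p = 0.782). The summed level of the list was 1096 to 1215 CPM in Tspan8hi and 1013 to 1126 CPM in Tspan8- libraries, overlapping, while Krt8 and Krt18 had log2 fold changes of -0.07 and 0.10. Tight junction genes had 14 of 19 above 0 and a median of 0.10. Luminal progenitor genes had 3 of 13 above 0 and hormone-sensing luminal genes 9 of 16. The part of luminal cells in any of these values was not tested.

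Markers of cells outside the epithelium were looked at because a sort can carry them. Fibroblast genes had 11 of 15 below 0, 4 of 15 lower at an unadjusted p under 0.05 and a median of -0.19 (-0.33 to -0.11 over the alternatives). Summed levels were 394 to 485 CPM in Tspan8hi and 486 to 539 CPM in Tspan8- libraries, which nearly touched without overlapping. No other of the 33 lists had sums free of overlap, and the gap was not tested. At no single tested gene of the fibroblast list were the sides free of overlap. Decorin (Dcn), a matrix proteoglycan, averaged 21.7 ± 14.5 CPM in Tspan8hi and 41.8 ± 24.0 CPM in Tspan8- libraries (log2 -0.97 ± 0.24, adjusted p = 0.123), and its ranges overlapped. Of the fibrillar collagen genes, Col3a1 averaged 3.41 CPM in Tspan8hi and 9.79 CPM in Tspan8- libraries (log2 -1.37 ± 0.63, adjusted p = 0.782), and Col1a1 and Col1a2 had log2 fold changes of 0.24 and 0.21. The fibroblast markers Fap, Tcf21 and Clec3b were below the filter. Their part in the lower values of Tspan8hi cells was not tested. Striated muscle genes had 10 of 11 below 0 and a median of -0.37 (-0.80 to -0.11 over the alternatives, -0.31 with loess offsets). Most of them averaged under 10.3 CPM, in level bins where the medians of all genes were -0.35 and -0.18. Their summed levels were only 76.7 to 101 CPM in Tspan8hi and 97.0 to 119 CPM in Tspan8- libraries, with Acta1, Actc1, Myh4, Ttn and Neb below the filter. Pericyte genes had 9 of 12 below 0 and a median of -0.14 (-0.23 to -0.08 over the alternatives), with summed levels of 376 to 401 CPM in Tspan8hi and 385 to 439 CPM in Tspan8- libraries. Endothelial genes had a median of 0.23, which turned to -0.01 without Lgr5-Tspan8hi replicate 1. Of 16 immune genes 10 were below the filter, among them Cd3e, Csf1r and Tyrobp. Adipocyte, Schwann and neural, and epidermal keratinocyte lists had medians of -0.01, -0.02 and -0.08, each of which changed sign under at least 1 alternative.

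Apart from the called genes themselves, no tested member of their families passed. These lists were drawn up around the called genes, so the calls in them are no independent evidence. Of 19 filamins and filamin partners tested, 10 were above 0 and 9 below, with a median of 0.0013, whose sign turned under 12 alternatives, and apart from Asb2, Filip1l and Fbxl22 none passed. The filamin genes Flna and Flnc had log2 fold changes of 0.03 and 0.14, and Filip1, the closest relative of Filip1l, had 0.13 ± 0.22. The 15 heparan sulfate sulfotransferase and sulfatase genes had a median of -0.14 (-0.28 to -0.06 over the alternatives), 13 values below 0, and 5 lower at an unadjusted p under 0.05. Hs3st3a1, which makes a related 3-O-sulfate, averaged 81.9 ± 11.8 CPM in Tspan8hi and 112 ± 15.8 CPM in Tspan8- libraries (log2 -0.46 ± 0.13, adjusted p = 0.370). Hs3st3b1 had a log2 fold change of -0.34 ± 0.12. Of 17 phosphodiesterases 7 were above 0 and only Pde3a passed, and Pde4b had 0.27 ± 0.16. The 23 leucine-rich synaptic adhesion genes had a median of -0.23 (-0.37 to -0.13 over the alternatives) and 18 values below 0, and Lrfn5 alone passed. Flrt3 had -0.51 ± 0.16 (adjusted p = 0.540). Among 25 tetraspanins Tspan8 alone passed and the median was 0.08, which turned to -0.0005 without Lgr5-Tspan8hi replicate 1. Tspan18 had 52.7 ± 4.55 CPM in Tspan8hi and 68.6 ± 6.04 CPM in Tspan8- libraries (log2 -0.39 ± 0.16, adjusted p = 0.742).

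Signalling and regulatory lists held no call apart from Tspan8 among stem cell surface markers. Wnt and R-spondin genes had 13 of 35 above 0 and a median of -0.04; Rspo2, an R-spondin ligand of the Lgr receptors, averaged 5.91 ± 3.75 CPM in Tspan8hi and 14.5 ± 6.69 CPM in Tspan8- libraries (log2 -1.33 ± 0.42, adjusted p = 0.508), and Fzd10, a Wnt receptor, 91.5 ± 20.7 CPM in Tspan8hi and 122 ± 15.2 CPM in Tspan8- libraries (log2 -0.42 ± 0.13, adjusted p = 0.487). Id3, an inhibitor of basic helix-loop-helix factors induced by BMP, was the TGF-beta and BMP gene with the smallest p, at 119 ± 2.76 CPM in Tspan8hi and 89.9 ± 14.0 CPM in Tspan8- libraries (log2 0.42 ± 0.13, adjusted p = 0.436). Hormone receptor genes were split 10 to 10, with Rara at 0.31 ± 0.12 and Igf1r at -0.22 ± 0.11. Epithelial-mesenchymal transition factors had 4 of 16 higher and 3 lower at an unadjusted p under 0.05; Snai1, a repressor of E-cadherin, averaged 22.2 ± 13.4 CPM in Tspan8hi and 11.3 ± 3.44 CPM in Tspan8- libraries, and the mesenchymal homeobox gene Prrx1 52.1 ± 12.1 CPM in Tspan8hi and 73.3 ± 12.1 CPM in Tspan8- libraries, both with overlapping ranges. Notch, proliferation, cell cycle inhibitor, collagen and laminin, developmental factor and interferon lists had medians between -0.11 and 0.06. The enzymes that write and erase H3K4 methylation had a median of 0.06 and none at an unadjusted p under 0.05. Ribosomal protein genes, a control of steadily marked promoters, had 47 of 81 above 0 and a median of 0.02, which turned to -0.01 with loess offsets. Olfactory receptor genes, known from the nose, took 0.131% ± 0.0243 of counts in Tspan8hi and 0.187% ± 0.0435 in Tspan8- libraries (SD, n = 4 each; exact two-sided permutation test, p = 0.0571), and the 91 of 1126 that passed the filter had a median of -0.22, which turned to 0.09 with loess offsets.

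H3K27me3, measured in 8 other libraries of the same subpopulations, was read at the same genes. Its counts are not read as the mark around a start, since genes that share a start had unlike values. In Tspan8hi libraries Lrfn5 averaged 239 CPM and Gm20063 41.3 CPM of H3K27me3, and Col4a5 480 CPM and Col4a6 828 CPM. The 2 marks are thus compared by gene and not at the same promoter. Of 22099 genes, 74 passed for Tspan8hi over Tspan8- with H3K27me3 (0.335%). Of the 8 genes with lower H3K4me3, 7 could be tested, 4 had H3K27me3 log2 fold changes above 0, and 2 passed, both higher. Lrfn5 and Gm20063, with starts within 2 kb of each other, are among these 4. The share of all genes above 0 for H3K27me3 was not counted. At Asb2 H3K27me3 was 33.4, 31.7, 29.4 and 29.8 CPM in Tspan8hi libraries, against 16.3, 22.3, 18.7 and 14.1 CPM in Tspan8- libraries (log2 0.81 ± 0.17, adjusted p = 0.0357). All Tspan8hi libraries were above all Tspan8- libraries. The H3K27me3 call at Asb2 was lost without either Lgr5+Tspan8hi library, either Lgr5+Tspan8- library or Lgr5-Tspan8- replicate 2 (adjusted p = 0.120 to 0.253), and the log2 fold change stayed between 0.71 and 0.93. At Pde3a it was 312, 343, 256 and 264 CPM in Tspan8hi libraries, against 272, 262, 135 and 122 CPM in Tspan8- libraries (log2 0.66 ± 0.09, adjusted p = 0.0004). The H3K27me3 call at Pde3a held without any 1 library. The sides overlapped, since the Lgr5+Tspan8- libraries were as high as the Lgr5-Tspan8hi ones. Lrfn5 and Gm20063 had 0.29 ± 0.10 and 0.37 ± 0.15 without passing (adjusted p = 0.188 and 0.281), though Lrfn5 passed without Lgr5-Tspan8- replicate 1 (adjusted p = 0.0197). Filip1l, Hs3st4 and Tmem215 had -0.02 ± 0.09, -0.03 ± 0.08 and -0.20 ± 0.31, and the first 2 of these turned above 0 under other scalings. Filip1l and Hs3st4 had many H3K27me3 counts on both sides, Filip1l at 300 ± 31.6 CPM in Tspan8hi and 305 ± 17.7 CPM in Tspan8- libraries and Hs3st4 at 777 ± 17.98 CPM in Tspan8hi and 796 ± 51.2 CPM in Tspan8- libraries. Fbxl22 was below the H3K27me3 filter. At Tspan8 itself H3K27me3 averaged 12.5 ± 2.24 CPM in Tspan8hi and 21.4 ± 5.46 CPM in Tspan8- libraries, with all Tspan8hi libraries below all Tspan8- libraries (log2 -0.72 ± 0.20, adjusted p = 0.104), and it passed without Lgr5-Tspan8hi replicate 2 (adjusted p = 0.0326).

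**Figure D5:**
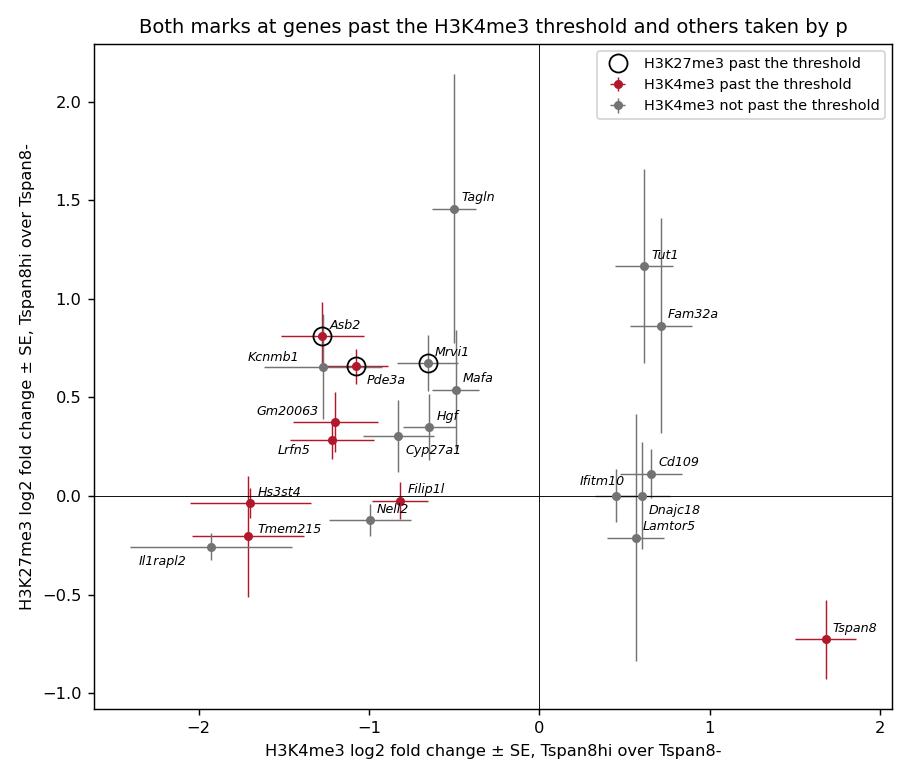
Log2 fold change of H3K27me3 against that of H3K4me3, Tspan8hi over Tspan8-, with SE, for the 22 genes tested for both marks among the 9 past the H3K4me3 threshold and the 16 others taken for the plot of both Lgr5 states. Asb2 and Pde3a passed for both, and Mrvi1, of the others plotted, passed for H3K27me3 at an H3K4me3 value of -0.65. H3K27me3 counts are not read as counts around a gene start.

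Mrvi1, Hs3st3a1 and Fzd10, named for H3K4me3 without passing for it, had higher H3K27me3 in Tspan8hi cells. They are given because they passed for H3K27me3, as 0.335% of all genes did. They come from 85 named genes, not all of which could be tested for H3K27me3. Mrvi1 had 63.7 ± 6.33 CPM in Tspan8hi and 39.9 ± 7.33 CPM in Tspan8- libraries (log2 0.67 ± 0.14, adjusted p = 0.0347). Hs3st3a1 had 81.4 ± 11.04 CPM in Tspan8hi and 50.1 ± 4.82 CPM in Tspan8- libraries (log2 0.69 ± 0.12, adjusted p = 0.0077). Fzd10 had 18.3 ± 4.57 CPM in Tspan8hi and 7.83 ± 2.21 CPM in Tspan8- libraries (log2 1.23 ± 0.25, adjusted p = 0.0223). In all 3 each Tspan8hi library was above each Tspan8- library for H3K27me3 (SD, n = 4 each), while their H3K4me3 log2 fold changes were -0.65, -0.46 and -0.42. The share of all genes with this separation for H3K27me3 was not counted. Other named genes had lower values of both marks. Il1rapl2 had an H3K27me3 log2 fold change of -0.26 ± 0.07 (edgeR adjusted p = 0.083), with every Tspan8hi library below every Tspan8- library, and Nell2 -0.12 ± 0.08.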

How the data were processed

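Libraries were grouped by the Lgr5 and Tspan8 status in their labels. The authors deposited raw counts per Entrez gene for each immunoprecipitated library, with the counter featureCounts and the build mm10 named in the submitters' processing notes. What aligner, versions and counted region were used is not given in the sources here. No value is relative to input. Symbols, coordinates and promoters came from RefSeq tables of GRCm38.p6, which named 25189 of 27080 identifiers, and 8 of the 9 called genes had a promoter entry.

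Counts were fitted with edgeR 4.0.16 in R 4.3.3 (TMM factors, filterByExpr by subpopulation, a mean for each of 4 subpopulations, robust quasi-likelihood F test, Benjamini-Hochberg adjustment over all 19009 genes of H3K4me3 or 22099 of H3K27me3). The threshold was an adjusted p of 0.05. The biological coefficient of variation was 16.0% for H3K4me3, with 4 residual degrees of freedom, and counting error weighs more at low counts. Standard errors came from the F statistic. The fit was tested on simulated data, drawn from a mean profile shared by all libraries apart from changes set at some genes. These data held neither the slope with level nor the difference in genes with no count, so the fit was not tested under those. Effects within an Lgr5 state and the interaction came from the same fit. No library was a copy of another: replicates differed by 3.07 to 4.91 times sampling noise (chi-square per degree of freedom). Permutation tests over libraries were exact.

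Members, lists and the naming rule were chosen with earlier results of these data known. The rule took Tspan8 and Lgr5, every gene past the threshold, the 8 smallest p each way among other genes whose sides did not overlap (olfactory receptors, small RNAs, clones and predicted genes left out), the 2 smallest p of each of 33 lists, and the 4 smallest interaction p. Some of these are not described. List members given behind them were chosen after their values were seen. Alternatives were DESeq2 1.42.0, limma-voom 3.58.1, RLE size factors, library totals, loess offsets, no filter, a mean of at least 5 CPM, a replicate block with and without loess offsets, each library left out in turn, and starts within 2 kb merged. The same alternatives for H3K27me3 were chosen after seeing the data and were run for Tspan8 and the lower genes, not for Mrvi1, Hs3st3a1 or Fzd10.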

Additional observations from a re-analysis of the deposited data

Results flagged for a closer look

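Among the named genes, 60 groups of 4 libraries were checked for a library far from the other 3, and chance flags about 1 group in 20. Tut1 had 75.7 CPM of H3K4me3 in Lgr5-Tspan8hi replicate 1, far above the other 3 Tspan8hi libraries. Dnajc18 had 55.5 CPM in Lgr5+Tspan8- replicate 2, far above the other 3 Tspan8- libraries. Nupr1 had 11.6 CPM in Lgr5+Tspan8- replicate 2, far below the other 3 Tspan8- libraries. None of these genes passed the threshold for the Tspan8 difference.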

How the results depend on the processing

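The 9 genes called by edgeR were also the 9 called by DESeq2, with RLE size factors, with library totals, with loess offsets and without a filter on low counts. Limma-voom called 13, of which 8 were among the 9, and a mean of at least 5 CPM gave 12. The labels do not say whether equal replicate numbers pair the libraries. Replicate differences of 6 pairs of subpopulations correlated at -0.028 to 0.14, and 1 of 6 was over 0.1. Noise of single libraries enters each difference, so these values do not decide it. A replicate block gave 13 genes, and the replicate block with loess offsets gave 18. Leaving out 1 library at a time gave 1 to 64 genes, and Tspan8 passed every time. Merged starts gave 8 promoters. The interaction called 2 genes with limma-voom and 0 to 7 with 1 library left out. Effective depth, the share of a library's total at which random draws from the mean profile leave as many genes uncounted, was 34.6% ± 12.9 in Tspan8hi and 79.3% ± 20.4 in Tspan8- libraries (SD, n = 4 each; exact permutation p = 0.0286). The difference was -52.7 to -38.1 percentage points with 1 library left out, where the smallest possible p is 0.0571.

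Some log2 fold changes near 0, and that of Aldh1a1, changed sign. With 1 library left out, H3K4me3 ran from -0.19 to 0.13 at Lgr5, from -1.06 to 0.068 at Aldh1a1 and from -0.27 to 0.056 at Tmem200c. For H3K27me3, Filip1l had 0.028 with library totals, 0.056 with loess offsets, 0.052 with the replicate block and loess offsets, and -0.092 to 0.041 with 1 library left out. Hs3st4 had 0.016, 0.0549 and 0.0552 in those first settings and -0.093 to 0.0089 with 1 library left out. The cause was not tested. Of 1441 alternatives over 85 named genes, 1386 kept direction and side of the threshold, 33 lost the call, 17 gained one and 5 changed sign. Depth limits Hs3st4 and Tmem215, which had as few as 11 and 10 counts in a library.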
